A study of Mus musculus with 12 samples.

Results

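The genes described here are p53 targets and brakes of the cell cycle in F9 cells, a mouse teratocarcinoma line that resembles the early embryo. The rule took every probe set whose platform annotation gives Cdkn1a, Perp, Bbc3, Mdm2, Ccng1, Trp53, Bax, Rb1, Ccne2 or Cdc25b as its single symbol. It found 13 of 37600 tested probe sets, for 8 of the 10 genes and of 16509 genes with a single symbol, and Trp53 and Bax were not analysed here. The name fits most of these genes but not all, since Ccne2 and Cdc25b drive the cell cycle in the textbook account.

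The study asked how cells labelled as lacking the retinoic acid receptor alpha gene (Rara) respond to its ligand, all-trans retinoic acid (atRA). There were 4 groups of 3 arrays: RARaKO cells in atRA, RARaKO cells in the ethanol vehicle, WT cells in atRA and WT cells in vehicle. All 4 groups received cycloheximide at 1 µg/ml, which blocks protein synthesis, for 8 h in total, so that changes needing a newly made protein are held back in every group. After 30 min in cycloheximide alone, the cells had 1 µM atRA or 0.1% ethanol for 7.5 h. The arrays are numbered as sets 2, 3 and 4, and values below are given in that order. The labels do not say whether the RARaKO line is a single clone.

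The p53 protein is a transcription factor that is stabilised by stress and held down by the ubiquitin ligase Mdm2, itself a p53 target. Its targets include Cdkn1a, which encodes the CDK inhibitor p21, and genes of programmed cell death such as Bbc3 (PUMA) and Perp. Upstream of S phase, Rb1 binds E2F factors and holds cells in G1 until cyclin E with CDK2 and cyclin D with CDK4 or CDK6 release them. F9 cells divide fast and leave the cycle as retinoic acid turns them into endoderm over days, a longer time than was sampled here.

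Values are taken as log2, and every probe set had been centred to a median of 0 over the arrays. A value of -0.25 therefore lies 0.25 below that probe set's middle, and values of different probe sets do not compare levels. The spacing of the deposited numbers still showed that 12 of the 13 probe sets lay at 8 or above before centring on all 12 arrays, as did 33.9% of all probe sets. All 10 measured markers of pluripotent cells were in that class and 11 of 14 of extraembryonic endoderm, against 2 of 8 markers of trophoblast and 3 of 10 of fibroblasts, and no marker of these 4 lists was called between RARaKO and WT arrays. The Rara probe set gave 0.20 ± 0.13 in RARaKO atRA, 0.30 ± 0.02 in RARaKO vehicle, -0.16 ± 0.11 in WT atRA and -0.60 ± 0.14 in WT vehicle arrays (SD, n = 3 each). It was thus higher in the arrays labelled RARaKO, by 0.36 ± 0.09 in atRA and 0.90 ± 0.09 in vehicle (limma, adjusted p = 0.0488 and 1.50e-04). Whether the probe set covers the deleted part is not known here, so it settles the labels in neither direction, and each comparison below is between arrays as labelled.

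Promoter sequences are shown for the 3 measured members whose window holds the letters that p53 recognises. The windows are from RefSeq on GRCm38.p6 and run 250 bases before to 50 after the start of transcription. Of the 8 measured genes, 5 had a window, with 2 for Cdkn1a and 3 for Bbc3, which made 8 windows, and 3 of these held a match. Perp, Rb1 and Ccne2 had no entry. Capitals mark matches to the p53 decamer, the 10-base consensus unit of which a full binding site has a pair, and the 250 bases before the start are printed 5′ to 3′ on the gene's strand.
Cdkn1a, chr17:29090729-29090978, plus strand: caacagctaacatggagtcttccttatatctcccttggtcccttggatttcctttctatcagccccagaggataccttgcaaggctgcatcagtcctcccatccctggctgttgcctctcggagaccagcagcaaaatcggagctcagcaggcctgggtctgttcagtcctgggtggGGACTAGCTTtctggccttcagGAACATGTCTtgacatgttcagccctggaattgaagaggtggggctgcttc
Ccng1, chr11:40755287-40755536, minus strand: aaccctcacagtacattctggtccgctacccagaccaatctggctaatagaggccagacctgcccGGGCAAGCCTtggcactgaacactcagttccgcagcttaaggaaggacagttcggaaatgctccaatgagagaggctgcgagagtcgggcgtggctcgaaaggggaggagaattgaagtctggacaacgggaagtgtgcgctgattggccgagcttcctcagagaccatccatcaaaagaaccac
Mdm2, chr10:117710759-117711008, minus strand: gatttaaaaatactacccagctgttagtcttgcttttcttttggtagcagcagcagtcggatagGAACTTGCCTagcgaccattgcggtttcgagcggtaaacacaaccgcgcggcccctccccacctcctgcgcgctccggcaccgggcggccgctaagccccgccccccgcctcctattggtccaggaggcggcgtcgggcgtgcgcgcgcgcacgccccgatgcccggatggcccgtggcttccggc

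The Cdkn1a window shown held 2 decamers, GGACTAGCTT and GAACATGTCT, with 12 bases between them, the nearer one ending 42 bases before the start. Only exact matches were marked. The bases tgacatgttc, directly after GAACATGTCT, miss the consensus at their first base and are therefore in small letters. The other Cdkn1a window, whose printed part would begin at base 29093519, held no match. Ccng1 held GGGCAAGCCT and Mdm2 held GAACTTGCCT, each once. Among all 32851 windows, 8.36% held at least 1 decamer and 0.359% held at least 2. The retinoic acid receptor unit AGGTCA was searched on both strands as well. It was in 16.3% of all windows and in 0 of the 8 windows of measured members. Direct repeats of AGGTCA spaced by 1, 2 or 5 bases were in 0 of these 8 windows, and in 0.0396%, 0.00913% and 0.00913% of all windows. These matches describe letters in the window and say nothing of binding.

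In atRA, 7 of the 8 measured genes were lower in RARaKO than in WT arrays on 1 probe set each: Cdkn1a, Rb1, Perp, Bbc3, Ccng1, Ccne2 and Cdc25b. The 7 fell by 1.27-fold to 1.45-fold and none of the 13 probe sets was called higher. Brakes and drivers of the cycle were both among the genes that fell. Over all tested probe sets, 1.51% were called lower in this comparison and 1.61% higher, against 7 and 0 of the 13 here. These backgrounds differ in level, as 12 of the 13 were in the class of 8, against 33.9% of all probe sets. Fitted in that class alone, 7 members and 1211 probe sets in all were called. The median difference of the 13 was -0.35, against 0.0035 over all probe sets. The members were chosen with earlier results of these data known, so these counts and medians are a description and no independent test. In bulk RNA of a whole dish, fewer cells of a kind and less RNA per cell cannot be told apart.

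**Figure D1:**
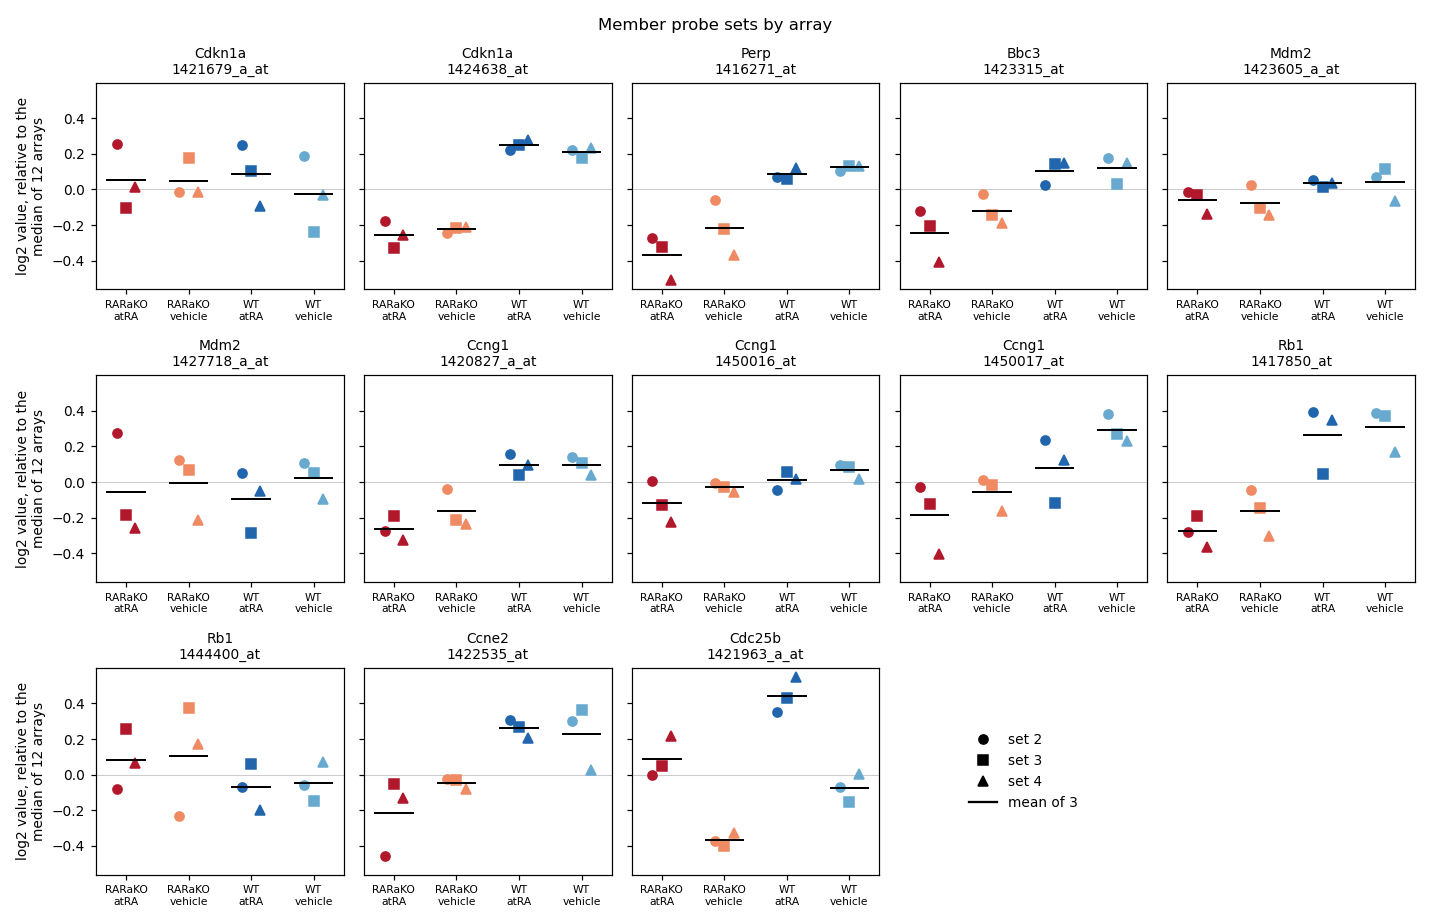
Centred log2 values of the 13 member probe sets on each array, in 1 panel per probe set, with sets 2, 3 and 4 as circle, square and triangle and a bar at each group's mean of 3 arrays. The Cdkn1a probe set 1424638_at runs from -0.33 to -0.18 in RARaKO atRA arrays and from 0.22 to 0.28 in WT atRA arrays, while 1421679_a_at overlaps between all groups.

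Among the brakes, Cdkn1a (1424638_at) read -0.18, -0.33 and -0.26 in RARaKO atRA arrays and 0.22, 0.25 and 0.28 in WT atRA arrays. In vehicle it read -0.25, -0.21 and -0.21 in RARaKO and 0.22, 0.18 and 0.23 in WT arrays. All 6 RARaKO arrays lay below all 6 WT arrays, and the 2 treatments within a genotype overlapped. The difference in atRA was -0.50 ± 0.059 (SE), 1.42-fold lower in RARaKO, with a 95% interval of -0.63 to -0.38 and an adjusted p of 4.89e-04 by limma. It ranked 96th of all probe sets by p. It was the one member call of the atRA comparison that held in all 16 alternatives fitted by probe set, with differences of -0.56 to -0.47. The mean of the gene's probe sets, given below, was a further alternative and did not keep the call. Its pooled SD within groups was 0.0454.

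A second Cdkn1a probe set gave another picture. Probe set 1421679_a_at read 0.25, -0.10 and 0.016 in RARaKO atRA and 0.25, 0.11 and -0.10 in WT atRA arrays, so the groups overlapped. Its difference was -0.030 ± 0.12, with a 95% interval of -0.30 to 0.24 (limma, adjusted p = 0.931). That interval leaves out the size seen on 1424638_at. The arrays of 1 group varied more on it, with a pooled SD of 0.173 against 0.0454. With the mean of both probe sets as the value of the gene, Cdkn1a was lower by a log2 difference of -0.27 ± 0.08 and was no longer called (limma over 16509 genes, adjusted p = 0.0706).

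Rb1, the retinoblastoma pocket protein gene, read -0.28, -0.19 and -0.36 in RARaKO atRA arrays and 0.39, 0.044 and 0.35 in WT atRA arrays on 1417850_at. All RARaKO arrays were lower, and WT set 3 stood below WT sets 2 and 4. The difference was -0.54 ± 0.10, 1.45-fold lower in RARaKO (limma, adjusted p = 0.0125). On 1444400_at, the only member probe set below the class of 8, the groups overlapped, at -0.083, 0.26 and 0.064 in RARaKO and -0.067, 0.060 and -0.20 in WT arrays. Its difference of 0.15 ± 0.14 pointed the other way and was not called (limma, adjusted p = 0.631, 95% interval -0.15 to 0.45). The mean of both probe sets gave -0.20 (limma, adjusted p = 0.162).

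Perp, a membrane protein of desmosomes and a p53 target in cell death, read -0.27, -0.32 and -0.51 in RARaKO atRA and 0.071, 0.062 and 0.12 in WT atRA arrays. Every RARaKO array was lower than every WT array, and RARaKO set 4 was lowest. The difference was -0.45 ± 0.083, 1.37-fold lower (limma, adjusted p = 0.00990). Bbc3, which encodes a BH3-only activator of cell death, read -0.12, -0.21 and -0.41 in RARaKO atRA and 0.024, 0.14 and 0.15 in WT atRA arrays. These groups did not overlap either, with RARaKO set 4 again lowest. Its difference was -0.35 ± 0.082, 1.27-fold lower (limma, adjusted p = 0.0397).

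Ccng1, which encodes cyclin G1, a p53 target that acts with the phosphatase PP2A on Mdm2, had 3 probe sets. On 1420827_a_at it read -0.28, -0.19 and -0.33 in RARaKO atRA and 0.16, 0.038 and 0.094 in WT atRA arrays, and the groups did not overlap. The difference was -0.36 ± 0.070, 1.28-fold lower (limma, adjusted p = 0.0145). The other probe sets had the same sign and were not called. On 1450017_at the values were -0.027, -0.13 and -0.40 in RARaKO and 0.24, -0.12 and 0.12 in WT arrays, a difference of -0.27 ± 0.11 (limma, adjusted p = 0.216). On 1450016_at they were 0.0059, -0.13 and -0.23 in RARaKO and -0.046, 0.056 and 0.016 in WT arrays, a difference of -0.13 ± 0.067 (limma, adjusted p = 0.361). The groups overlapped on both, and the mean of all 3 probe sets gave -0.25, which missed the threshold (limma, adjusted p = 0.0531).

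Mdm2, the inhibitor of p53 and the only measured member gene with no call in any comparison, also had probe sets that differed in spread. On 1423605_a_at it read -0.012, -0.031 and -0.14 in RARaKO atRA and 0.055, 0.012 and 0.034 in WT atRA arrays. The RARaKO arrays were all lower, by little, with a difference of -0.094 ± 0.069 and a 95% interval of -0.24 to 0.056 (limma, adjusted p = 0.529). That interval leaves out a fall of the size seen in Cdkn1a or Perp. On 1427718_a_at, with a pooled SD of 0.198 against 0.0728, the values were 0.28, -0.18 and -0.26 in RARaKO and 0.050, -0.29 and -0.050 in WT arrays, which overlapped. The difference there was 0.040 ± 0.14 (limma, adjusted p = 0.917).

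Both drivers of the cycle fell as well. Ccne2, the cyclin E2 that activates CDK2 at the entry into S phase, read -0.46, -0.052 and -0.13 in RARaKO atRA and 0.31, 0.27 and 0.20 in WT atRA arrays. The groups did not overlap, and RARaKO set 2 stood well below sets 3 and 4. The difference was -0.47 ± 0.11, 1.39-fold lower (limma, adjusted p = 0.0312). Cdc25b, a phosphatase that activates CDK1 before mitosis, read -0.0025, 0.051 and 0.22 in RARaKO atRA and 0.35, 0.43 and 0.55 in WT atRA arrays. All RARaKO arrays were lower, and the difference was -0.35 ± 0.076, 1.28-fold (limma, adjusted p = 0.0239).

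Many of these calls in atRA were lost when 1 array was left out. Whether a loss came from that array's values or from the smaller number of arrays was not tested. Without WT atRA set 4, only Cdkn1a was called, 1 of the 13 probe sets. That fit called 532 of all probe sets, against 1173 with every array. There were 3 calls without WT set 2, 4 without WT set 3, and 5 without any 1 of the 3 RARaKO arrays. Over all probe sets there were 755 without WT set 2 and 970 without WT set 3. Without RARaKO set 2, 3 or 4 there were 776, 1085 and 1061. Perp lost its call without WT set 4 (limma, adjusted p = 0.0520), and Rb1 without WT set 2 or 4 (0.0557 to 0.0674). Ccng1 lost it without WT set 2 or 4 or RARaKO set 4 (0.0507 to 0.0603). Cdc25b lost it without WT set 3 or 4 or RARaKO set 2 or 3 (0.0561 to 0.119), and Ccne2 without any WT array or RARaKO set 2 (0.0776 to 0.0935). Bbc3 lost it without any WT array or RARaKO set 3 or 4 (0.0570 to 0.152). These adjusted p-values are limma's in the 11 arrays left, and no difference changed sign. Without a whole set, only Cdkn1a kept its call in each case, and Rb1 kept it without set 3. With all arrays kept, Bbc3 missed the threshold under quantile normalization (limma, adjusted p = 0.0511). When only the atRA arrays were fitted, Bbc3 (0.121), Cdc25b (0.103), Ccne2 (0.0759) and Ccng1 (0.0561) lost their calls.

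In vehicle, by single probe sets, 3 genes were called lower in RARaKO than in WT arrays, Cdkn1a, Rb1 and Perp, and none higher. Over all tested probe sets 1.16% were called lower here and 1.84% higher, against 3 and 0 of the 13. Fitted in the class of 8 alone, 5 members and 1031 probe sets in all were called. In 9 of the 13 all RARaKO arrays lay below all WT arrays, against 12.7% of all probe sets, and in atRA this held for 8 of the 13, against 10.5% of all. The median difference of the 13 was -0.26, against -0.01 over all probe sets. The vehicle arrays are separate from the atRA arrays, but they come from the same cell lines and sets. These counts and medians too are a description, as the members were chosen with earlier results known.

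In vehicle, Cdkn1a on 1424638_at differed by -0.43 ± 0.059, 1.35-fold lower (limma, adjusted p = 0.00132), and on 1421679_a_at the difference was 0.076 ± 0.12 with a 95% interval of -0.19 to 0.34. Rb1 on 1417850_at read -0.044, -0.15 and -0.30 in RARaKO vehicle and 0.39, 0.37 and 0.17 in WT vehicle arrays. The groups did not overlap, and the difference was -0.47 ± 0.10, 1.39-fold lower (limma, adjusted p = 0.0261). Perp read -0.062, -0.22 and -0.37 in RARaKO vehicle and 0.10, 0.13 and 0.13 in WT vehicle arrays. The 3 WT arrays were close together and the RARaKO arrays spread widely below them, with a difference of -0.34 ± 0.083, 1.27-fold lower (limma, adjusted p = 0.0455). With the mean of a gene's probe sets as its value, Cdkn1a was at -0.18 and Rb1 at -0.16. Neither was then called (limma over 16509 genes, adjusted p = 0.255 and 0.285). In that fit Perp kept its call (0.0273) and Cdc25b passed the threshold (0.0352).

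The other members called in atRA had the same sign in vehicle and missed the threshold. Bbc3 read -0.024, -0.14 and -0.19 in RARaKO vehicle and 0.18, 0.033 and 0.15 in WT vehicle arrays, a difference of -0.24 ± 0.082 (limma, adjusted p = 0.169). Ccne2 read -0.026, -0.028 and -0.081 in RARaKO vehicle and 0.30, 0.37 and 0.026 in WT vehicle arrays, a difference of -0.27 ± 0.11 (adjusted p = 0.222 by limma). In both genes the groups did not overlap, by a narrow margin. Ccng1 on 1420827_a_at read -0.038, -0.21 and -0.24 in RARaKO vehicle and 0.14, 0.11 and 0.042 in WT vehicle arrays, a difference of -0.26 ± 0.070 (limma, adjusted p = 0.0731). On its probe set 1450017_at the values were 0.014, -0.014 and -0.16 in RARaKO and 0.38, 0.27 and 0.23 in WT arrays, a difference of -0.35 ± 0.11 (limma, adjusted p = 0.119). Cdc25b read -0.37, -0.40 and -0.33 in RARaKO vehicle and -0.070, -0.15 and 0.0025 in WT vehicle arrays, a difference of -0.29 ± 0.076 (limma, adjusted p = 0.0588). Both of these genes had RARaKO arrays below every WT array. With the set number as a block, which pairs the arrays of this comparison, 6 of the 13 probe sets were called lower in place of 3. The block added Cdc25b (adjusted p = 0.0167) and Ccng1 on 1420827_a_at and 1450017_at (0.0417 and 0.0430, limma).

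The remaining 5 probe sets were not called in vehicle either, with adjusted p-values of 0.481 to 0.956 by limma. Mdm2 on 1423605_a_at read 0.023, -0.10 and -0.15 in RARaKO vehicle and 0.069, 0.11 and -0.063 in WT vehicle arrays, a difference of -0.12 ± 0.069. On 1427718_a_at it read 0.12, 0.069 and -0.21 in RARaKO and 0.11, 0.053 and -0.10 in WT arrays, a difference of -0.029 ± 0.14. Both pairs overlapped, and so did the second probe sets of Cdkn1a and Rb1. Cdkn1a on 1421679_a_at read -0.017, 0.18 and -0.016 in RARaKO vehicle and 0.19, -0.24 and -0.029 in WT vehicle arrays. Rb1 on 1444400_at read -0.23, 0.37 and 0.17 in RARaKO and -0.060, -0.15 and 0.074 in WT arrays, a difference of 0.15 ± 0.14. Ccng1 on 1450016_at was the exception, with RARaKO arrays at -0.0059, -0.030 and -0.055, all below WT arrays at 0.10, 0.086 and 0.019. Its difference of -0.10 ± 0.067 was small and not called (limma, adjusted p = 0.549).

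Vehicle calls were also lost in fits without 1 array, and here too the reason was not tested. Only 1 of the 13 was called without WT set 2 or 3 or RARaKO set 3 or 4, 2 without WT set 4, and 4 without RARaKO set 2. Over all probe sets these fits called 545 to 859, against 1131 with every array. Cdkn1a kept its call without each single array (highest adjusted p = 0.00908, limma) and lost it without the whole of set 3 or 4 (highest 0.0794). Perp lost it without any WT vehicle array or RARaKO vehicle set 3 or 4 (0.0992 to 0.141), and Rb1 without WT set 2 or 3 or RARaKO set 3 or 4 (0.0844 to 0.0973). Both lost it without each whole set. With all arrays kept, Perp also lost its call when arrays were centred on their medians (limma, adjusted p = 0.0541), under quantile normalization (0.0536) and when only the vehicle arrays were fitted (0.0766). One measure of RNA quality ran with the genotype in vehicle. The mean signal of the 5′ minus the 3′ control probe sets for Actb, Gapdh, Tfrc and Pcx was 0.07, -0.02 and 0.13 in RARaKO vehicle arrays, against -0.09, -0.12 and -0.08 in WT vehicle arrays. In atRA it was 0.06, 0.0012 and 0.09 in RARaKO arrays and 0.02, -0.02 and -0.01 in WT arrays, which overlapped. Taken singly in vehicle, Tfrc separated the genotypes, at 0.0074, -0.068 and 0.39 in RARaKO and -0.17, -0.48 and -0.11 in WT arrays. Actb, Gapdh and Pcx each overlapped. The part of this signal in the results was not tested.

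**Figure D2:**
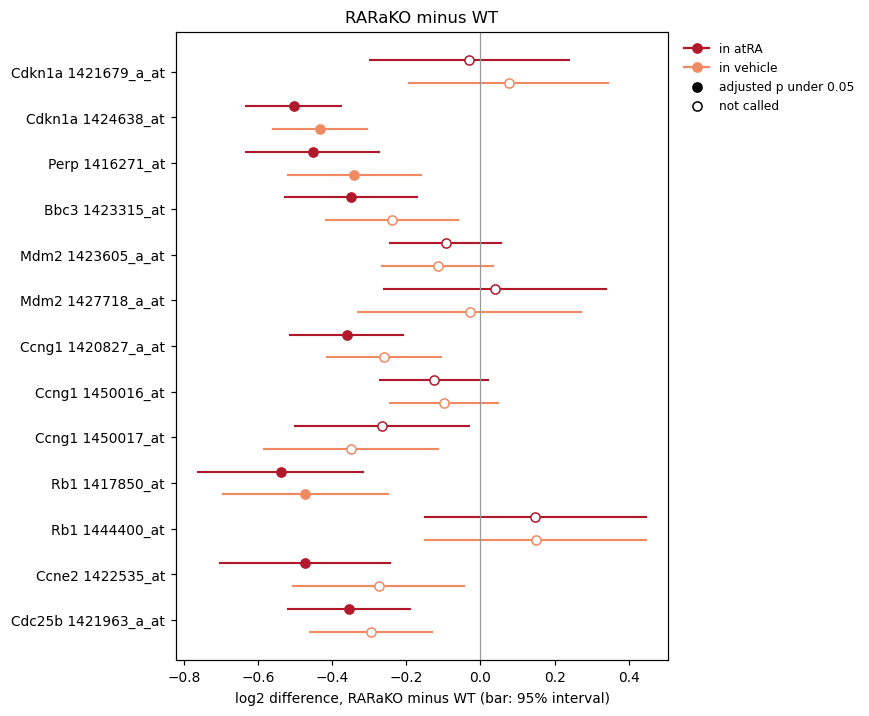
RARaKO minus WT on the log2 scale for each of the 13 member probe sets, in atRA and in vehicle, with 95% intervals from the limma fit and filled points where the adjusted p was under 0.05. The points lie below 0 for 11 of the 13 probe sets in each treatment, and the second probe sets of Cdkn1a and Rb1 sit near or above 0.

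Of the 8 genes, Cdc25b alone was called in the response to atRA, and it rose in both genotypes. It read -0.0025, 0.051 and 0.22 in RARaKO atRA arrays, against -0.37, -0.40 and -0.33 in RARaKO vehicle arrays. In WT cells it read 0.35, 0.43 and 0.55 in atRA arrays, against -0.070, -0.15 and 0.0025 in vehicle arrays. In both genotypes every atRA array was above every vehicle array, as for 7.31% of all probe sets in RARaKO and 6.22% in WT. The lowest RARaKO atRA array lay below the highest WT vehicle array. The rise was 0.46 ± 0.076 in RARaKO, 1.37-fold (limma, adjusted p = 0.0278), where 0.215% of all probe sets were called higher, against 1 of the 13. It was 0.52 ± 0.076 in WT, 1.43-fold (limma, adjusted p = 0.00655), where 0.484% of all were called higher, against 1 of the 13. By p it ranked 66th of all probe sets in RARaKO and 83rd in WT. The 5′ minus 3′ control signal given above also ran with atRA in WT, at 0.02, -0.02 and -0.01 in atRA arrays and -0.09, -0.12 and -0.08 in vehicle arrays, while in RARaKO it overlapped. Taken singly in WT, only Tfrc separated atRA from vehicle arrays, by a narrow margin, and Actb, Gapdh and Pcx each overlapped. The part of this signal in the rise was not tested.

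The Cdc25b call in WT held without each of the 6 single arrays and was lost without each whole set (limma, adjusted p = 0.102 to 0.304). In RARaKO it held without atRA set 2 and was lost without each of the other 5 arrays (limma, adjusted p = 0.0692 to 0.162) and without each whole set (0.256 to 0.526). It was also lost in RARaKO when only these 6 arrays were fitted (limma, adjusted p = 0.168). The difference between the rises, RARaKO minus WT, was -0.060 ± 0.11, with a 95% interval of -0.29 to 0.17, so these arrays did not show an unequal response and leave room for one of that width.

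None of the p53 targets or brakes was called in response to atRA in either genotype. Cdkn1a on 1424638_at differed by -0.032 ± 0.059 in RARaKO (95% interval -0.16 to 0.10) and by 0.039 ± 0.059 in WT (-0.088 to 0.17). These intervals bound any response of that probe set more tightly than those of the other members. Perp differed by -0.15 ± 0.083 in RARaKO and -0.039 ± 0.083 in WT, and Bbc3 by -0.12 ± 0.082 in RARaKO and -0.014 ± 0.082 in WT. Rb1 on 1417850_at differed by -0.11 ± 0.10 in RARaKO and -0.046 ± 0.10 in WT, and Ccne2 by -0.17 ± 0.11 in RARaKO and 0.030 ± 0.11 in WT. Ccng1 differed by -0.13 to -0.086 in RARaKO and by -0.21 to 0.00091 in WT over its 3 probe sets, and Mdm2 by 0.015 ± 0.069 in RARaKO and -0.0062 ± 0.069 in WT on 1423605_a_at. In each of these genes the atRA and vehicle arrays overlapped in both genotypes. The median difference of the 13 was -0.09 in RARaKO and -0.01 in WT, against -0.0040 and -0.01 over all probe sets.

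**Figure D3:**
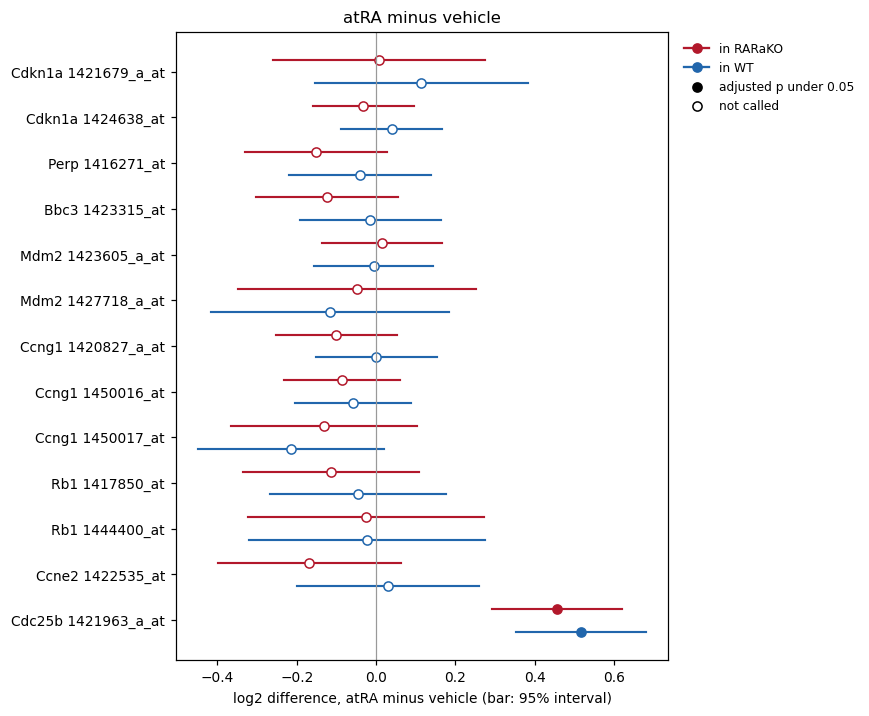
The response to atRA, atRA minus vehicle on the log2 scale, of each of the 13 member probe sets in RARaKO and in WT cells, with 95% intervals from the limma fit and filled points where the adjusted p was under 0.05. Cdc25b is the one member with filled points, at 0.46 in RARaKO and 0.52 in WT.

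The difference between the responses, RARaKO minus WT, was called by limma for 0 of the 13 probe sets and 0% of all 37600. At an unadjusted p under 0.05 there were 0 of the 13 and 1168 of all, and the smallest adjusted p was 1.00. Among the 13 the differences ran from -0.20 for Ccne2, with a 95% interval of -0.52 to 0.13, to 0.08 for Ccng1 on 1450017_at, with -0.25 to 0.42. The larger count in atRA than in vehicle, 7 against 3, is no test of that difference.

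The sets also stood in a similar order in many of the members. In RARaKO atRA arrays set 2 was highest in 8 of the 13 probe sets and set 4 lowest in 8. In RARaKO vehicle arrays set 2 was highest in 9 and set 4 lowest in 9. WT vehicle arrays showed the same order, with set 2 highest in 7 and set 4 lowest in 7. In WT atRA arrays set 2 was again highest in 7, and set 3 was lowest in 6. Whether the genotypes differ in this was not tested. Set 4 was the lowest of its group in 30.91% of all probe sets in RARaKO atRA, 33.17% in RARaKO vehicle, 29.03% in WT atRA and 31.67% in WT vehicle arrays. The members' median deviation from the group mean was 0.08 for set 2 and -0.08 for set 4 in RARaKO atRA, and 0.07 and -0.07 in RARaKO vehicle arrays. In WT atRA it was 0.02 for set 2 and 0.03 for set 4, and in WT vehicle arrays 0.04 and -0.05. Over all probe sets the medians of the sets lay between -0.0080 and 0.0094. Perp had set 4 lowest and set 2 highest among its RARaKO arrays in both treatments.

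Wider lists of the same pathways were taken from textbook knowledge, with 1 probe set per gene. For Cdkn1a and Rb1 this was the called probe set. For Ccng1 it was 1450016_at, so its atRA call on 1420827_a_at is not counted among the p53 targets. Among 38 measured p53 target genes, members included, 3 were lower in RARaKO than in WT arrays in atRA (Cdkn1a, Perp and Bbc3), against 1.76% of all 16509 genes. The 1 that was higher was Plk3, a polo-like kinase of the stress response, by 0.49 ± 0.10 in atRA and 0.56 ± 0.10 in vehicle (limma, adjusted p = 0.0231 and 0.0112). In vehicle 2 were lower (Cdkn1a and Perp), against 1.33% of all genes, and 1 was higher, against 2.04%. The differences were negative for 31 of the 38 in atRA and 29 in vehicle, with medians of -0.11 and -0.09, against -0.0096 and -0.02 over all genes. Of the 33 p53 targets that are no members here, none was lower and 1 was higher in either treatment by limma.

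In the CDK inhibitors and pocket proteins, 2 of 10 were lower in both treatments, Cdkn1a and Rb1, and the medians were -0.16 in atRA and -0.09 in vehicle. Among 22 cyclins, CDKs and E2F genes of G1 and S phase, Ccne2 was lower in atRA and none was called in vehicle. The medians were -0.14 in both, with 16 of 22 negative in both. Over all genes 1.76% were called lower in atRA and 1.33% in vehicle, and these lists hold few genes, so 1 call weighs much in them. Of 17 measured regulators of G2 and mitosis, Cdc25b was lower in atRA, and Cdc20, an activator of the anaphase-promoting complex, was higher. Cdc20 was higher in RARaKO by 0.46 ± 0.06 in atRA and 0.39 ± 0.06 in vehicle (limma, adjusted p = 0.00165 and 0.00535). The medians of this list were -0.03 in atRA and -0.04 in vehicle, near those of all genes. Among 19 measured genes of p53 and its regulators, Kat5, an acetyltransferase that acts on p53, was lower in atRA by a log2 difference of -0.31 ± 0.07 (limma, adjusted p = 0.0388), and none was called in vehicle, with medians of -0.02 and -0.05. In the BCL2 family, 1 of 14 measured genes was lower in atRA, Bbc3, and none was called in vehicle, with medians of -0.04 and -0.03. In response to atRA, the one gene called from these 6 lists was Cdc25b, in both genotypes.

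Of these calls outside the members, Cdc20 held without each single array. Plk3 was lost in atRA without RARaKO set 2 or 3 or WT set 2 or 4, and in vehicle without RARaKO set 2 or 3 (highest adjusted p = 0.0907 and 0.0562, limma). Kat5 was lost without any 1 of the 6 arrays (highest 0.128). Plk3 and Cdc20 lie on chromosome 4 between Tusc1 and Akirin1. Of the 221 genes measured in that stretch, 57.9% were higher in RARaKO in atRA and 58.8% in vehicle, and none was lower, against 1.73% and 2.04% higher over all genes. Outside it no gene of the 6 lists was called higher in RARaKO, and no member gene lies in it.

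**Figure D4:**
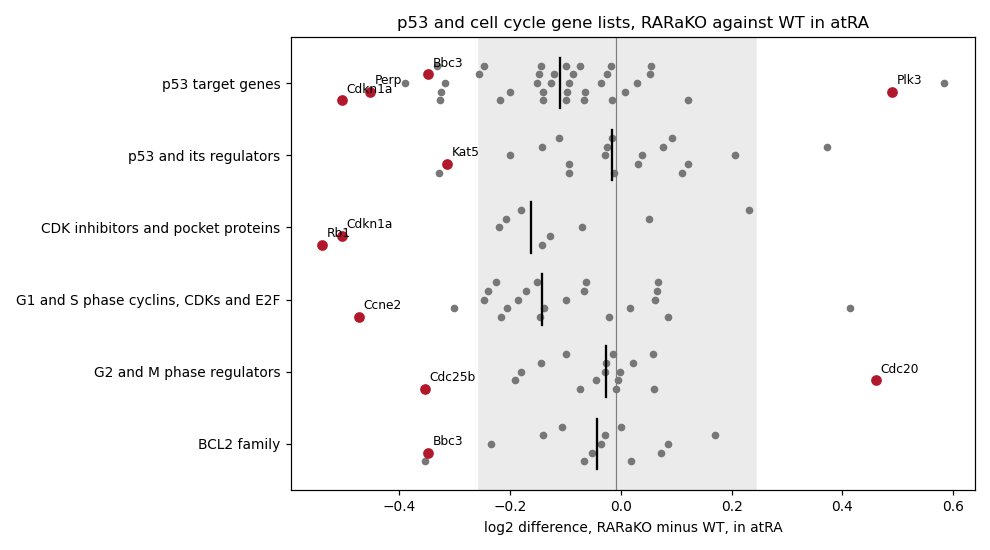
RARaKO minus WT in atRA on the log2 scale for each gene of 6 lists, with black bars at the list medians, a grey band from the 5th to the 95th percentile of all genes (-0.26 to 0.25), and called genes named in red. Most genes of each list lie inside the band, and the named genes below it include Cdkn1a, Perp, Bbc3, Rb1, Ccne2 and Cdc25b.

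The gene whose values over the 12 arrays lay nearest to Cdkn1a on 1424638_at, by root mean square difference among 16508 genes, was Rabl3, at 0.0439. The next were Tmem179b at 0.0592, Asrgl1 at 0.0649, Pfkm at 0.0714 and Eif4g3 at 0.0747, in log2 units. All 5 were lower in RARaKO, with differences of -0.47 (Rabl3), -0.43 (Tmem179b), -0.45 (Asrgl1), -0.38 (Pfkm) and -0.44 (Eif4g3) in atRA. None of them is in the lists above, and the likeness was chosen on the values and carries no test.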

How the data were processed

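12 RNA samples were hybridised to Affymetrix mouse arrays, per the labels' protocols from 5 µg of total RNA each. The deposited values, 1 per probe set and array, are taken as log2, the scale of GCRMA, which the submitters' processing notes name without a version. No label states the log base or the centring of each probe set on its median, which was found in the values (largest median 7.02e-07). The scale of the arrays before centring is lost, apart from the class read from the spacing of the numbers (2 to the power of -20 or -21, within a tolerance of 0.02 of a whole step, for values of 0.001 or more).

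Of 37661 probe sets, 61 controls were left out. The platform annotation gave 30488 a single symbol, 784 several and 6328 none, and only the first kind is named. The linear model (limma 3.58.1, R 4.3.3, with eBayes moderation) had 1 mean for each group of all 12 arrays, with 8 residual and 4.60 prior degrees of freedom. Two-sided p-values went through the Benjamini-Hochberg adjustment across 37600 probe sets, and those adjusted to under 0.05 are called. As the labels speak only of sets, the spread behind these p-values may be a technical one between arrays. Errors after ± are standard errors of the fit unless marked SD, and the number of arrays limits the precision. No 2 arrays held identical values. The fit was also run on simulated data with noise independent between arrays. That run lacks the shared deviations of sets described below and says nothing of their effect.

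Same-numbered arrays deviated together in both responses (correlations 0.101 to 0.497) and between genotypes in vehicle (0.116 to 0.238), which is where the pairing by set comes from. Between genotypes in atRA they were 0.287, 0.144 and 0.0375 in sets 2, 3 and 4, the last below the threshold of 0.1. The alternatives were the set as a block, the compared groups alone, array weights, 2 array scalings, a robust variance prior, the class of 8 alone, arrays or sets left out, and the mean of a gene's probe sets. Every member probe set was named. From the lists, called genes were named, at most 6 per list and comparison. The members and lists were chosen with earlier results of these data known. Each gene of a list was read from 1 probe set, by highest class, then the least ambiguous type, then the lowest number. Promoters came from RefSeq (GRCm38.p6, 27025 genes).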

Additional observations from a re-analysis of the deposited data

How the results depend on the processing

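No member difference reversed as a call under any alternative. Of the member differences recomputed, 1017 stayed on their side of the threshold, 10 passed it newly and 73 lost it. The 1017 include differences called in neither fit, and 91 of these turned sign. With the replicate block, called members in vehicle numbered 6 against 3, with 2344 probe sets called between genotypes in atRA (1173 without the block), 1972 in vehicle (1131), 339 in the WT response (214) and 167 in the RARaKO response (99), and the block changed no other member call. In atRA the correlation of same-numbered arrays was over 0.1 in sets 2 and 3 (0.287 and 0.144) and not in set 4 (0.0375). Fitting only the groups compared left 3 members in atRA and 0 in the RARaKO response, with 592 and 14 probe sets in all, and that fit is the same as the one reported for the difference between responses. Array weights called 5 members in vehicle, with 2071 probe sets there and 382 in the WT response. The class of 8 alone called 5 members in vehicle and 63 probe sets in the RARaKO response. Leaving out arrays or whole sets gave 1 to 5 members and 320 to 1085 probe sets between genotypes in atRA, 0 to 4 and 217 to 859 in vehicle, 0 to 1 and 2 to 69 in the RARaKO response, and 0 to 1 and 40 to 128 in the WT response. The difference between responses gave 0 throughout. Counts of called list genes stayed within 1.5 times in 1653 cases and moved in 147. The centred values give no level, and a median standard error of 0.0879 limits which differences could be called. The cause of these changes was not tested. Fits that leave arrays out also rest on fewer arrays.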

Other observations

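Outside the members, several p53 pathway genes had differences above 0.3 in size between RARaKO and WT arrays and were not called by limma. Those named were chosen after their values were seen and are not all the genes of that size. Plk2, a polo-like kinase induced by p53, came nearest to the threshold, at -0.39 in atRA (adjusted p = 0.0669) and -0.42 ± 0.10 in vehicle (adjusted p = 0.0507). Gadd45a, a stress-induced growth arrest gene, lay the other way at 0.58 ± 0.20 in both treatments (adjusted p = 0.139 in atRA and 0.163 in vehicle). Bak1, an effector of cell death, was at -0.35 in atRA (adjusted p = 0.0669), and the repair gene Ddb2 at -0.33 (adjusted p = 0.0678). The checkpoint kinase gene Chek2 was at -0.33 in atRA (adjusted p = 0.0758), and E2f1 at -0.30 (adjusted p = 0.0768). Cyclin D1 (Ccnd1), in contrast to cyclin E2, was at 0.41 in atRA (adjusted p = 0.138) and 0.38 in vehicle (adjusted p = 0.203). Also lower in atRA without a call were Eda2r (-0.33), Ddit4 (-0.32) and Apaf1 (-0.32). Higher without a call were Hipk2 in atRA (0.37) and the CDK inhibitor gene Cdkn1c in vehicle (0.41).

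In the fibroblast marker list, Pdgfrb alone was called in response to atRA, and it rose by 0.52 ± 0.08 in RARaKO and by 0.50 ± 0.08 in WT (limma, adjusted p = 0.0226 and 0.0175). Over all probe sets, 0.215% were called higher in RARaKO and 0.484% in WT. Of the 10 measured markers, 6 had negative differences in each genotype. The list medians were -0.05 in RARaKO and -0.04 in WT, and Pdgfrb was not in the class of 8.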
